A study of Mus musculus with 2 samples.

Results

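CD8-negative conventional alpha-beta T cells were examined in 2 droplet libraries prepared from the lamina propria of the small intestine, and 822 of the 3397 cells kept in the wild-type (WT) library met the rule (24.2%, 95% interval 22.8 to 25.7). In the Zfp36_KO library 6 of 3339 kept cells met it (0.180%, 0.066 to 0.391). Members were chosen by their UMIs (unique molecular identifiers, each standing for 1 captured transcript). A member had at least 2 UMIs of Cd3d, Cd3e and Cd3g together, at least 1 UMI of Trac, and none of Foxp3, Cd8a or Trdc. The rule does not leave out natural killer T (NKT) or mucosal-associated invariant T (MAIT) cells. Kept cells had at least 500 detected genes and at most 10% of UMIs in mitochondrial genes. Members were compared with the 2085 WT cells that had at most 1 UMI of the 3 Cd3 genes, called Cd3-low cells here.

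The WT library came from C57BL/6 mice with no stated treatment, and the Zfp36_KO library from Zfp36-/- mice on the same background, which lack tristetraprolin, an RNA-binding protein that shortens the life of many cytokine transcripts. Each library pooled cells of 4 mice, so a genotype is 1 measurement with no replicate. The sort for innate lymphoid cells (ILCs) took live CD45+ cells with CD90.2 and CD127 on their surface and without lineage markers, TCRβ or CD3, so a cell with Cd3 and Trac transcripts goes against that gate. The age and sex of the mice are not used here.

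Conventional alpha-beta T cells recognise peptides on MHC molecules through a receptor of one alpha and one beta chain. The receptor signals through the CD3 chains and the zeta chain encoded by Cd247, and CD28 supplies costimulation. CD4+ cells of this kind in the gut wall help B cells through CD40 ligand and interleukin-21, and activate macrophages or epithelium through interferon gamma or interleukin-17. Innate lymphoid cells make many of the same cytokines without a rearranged receptor.

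The deposited WT matrix lists 3593 barcodes with 24721524 UMIs in all, and the Zfp36_KO matrix 3522 barcodes with 27733804. Median depth was 5305 UMIs in kept WT cells and 5338 in kept knockout cells, and 2 barcodes occurred in both libraries. WT members had a median of 5079 UMIs and Cd3-low cells a median of 5376. Zfp36 itself stood at 637 CPM (UMIs of a gene scaled to a common total) in kept WT cells and 376 CPM in kept knockout cells. The labels do not say which part of the gene is deleted, so this 3′ count does not check the genotype. Immunoglobulin kappa (Igkc), which T cells do not make, had a UMI in 67.5% of members and 64.1% of Cd3-low cells at a fixed 2000 UMIs per cell, so a low share of cells with any abundant transcript can be background.

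Genes outside the rule were also counted. Cd5, Cd40lg and Il12rb2 were chosen as markers with earlier results of these data known, so they are no independent check of the label. At a fixed depth of 2000 UMIs per cell, where 808 members and 2030 Cd3-low cells were deep enough, Cd5 had a UMI in 39.4% of members (36.0 to 42.8) and 0.296% of Cd3-low cells. Cd40lg had one in 38.1% of members and 0.148% of Cd3-low cells, and Il12rb2 in 29.0% and 1.63%. The beta chain constant gene Trbc2 was found in 89.2% of members but also in 60.6% of Cd3-low cells, so it does not set the members apart on its own. Cd4 had a UMI in 35.2% of members and 2.71% of Cd3-low cells, and in 63.1% of members without thinning. Cd8b1, the CD8 beta chain, was at 0.743% in members and 69.9% in Cd8a-positive T cells, sets that the rule itself separates by Cd8a. Without thinning, Cd5 had a UMI in 59.1% of members, Cd40lg in 63.9% and Il12rb2 in 44.8%, so none of the 3 was found in every member. Sub-clusters led by genes of other cell types are described below.

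The values used to choose the members are described here without comparison. Members had a median of 16 UMIs of the 3 Cd3 genes (2 to 86) and a median of 5 of Trac (1 to 54). Few cells lay at the Cd3 threshold: 2 members had exactly 2 Cd3 UMIs, and 15 WT cells with Trac lay just outside with 1. The Trac threshold was closer to a continuum, with 58 members at 1 Trac UMI and 85 cells outside with enough Cd3 but no Trac. Cd5 had a UMI in 43.1% of those 58 members and 10.6% of those 85 cells. Klrb1b, an NK receptor gene carried by many Cd3-low cells, had one in 8.62% of the 58 and 34.1% of the 85.

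The 20 genes that stood farthest above Cd3-low cells included a group of T cell surface and signalling genes. Their order came from the end of the interval nearest 0, after leaving out the rule genes. The upstream sequences of 3 of them are shown because they belong to different roles: Cd5 is an inhibitory receptor of the T cell receptor complex, Slamf1 a costimulator and Il21 a cytokine. Each stretch runs from 250 to 31 bases before the RefSeq start (GRCm38.p6), 5′ to 3′ on the gene's strand. Capitals mark matches to 4 short motifs searched on both strands: AGGAAG (ETS), TGTGGT (RUNX), CTTTGA (TCF/LEF) and TGGAAA (NFAT).

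Cd5, chr19:10739005-10739224, minus strand: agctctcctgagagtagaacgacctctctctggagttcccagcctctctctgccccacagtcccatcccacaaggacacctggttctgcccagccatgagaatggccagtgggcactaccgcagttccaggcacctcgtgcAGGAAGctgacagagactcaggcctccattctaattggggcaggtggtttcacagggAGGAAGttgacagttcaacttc

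Slamf1, chr1:171766882-171767101, plus strand: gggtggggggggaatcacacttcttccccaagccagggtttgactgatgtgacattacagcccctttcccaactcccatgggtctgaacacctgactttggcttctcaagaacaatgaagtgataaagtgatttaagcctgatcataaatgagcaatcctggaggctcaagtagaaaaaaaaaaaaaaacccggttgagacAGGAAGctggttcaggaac

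Il21, chr3:37232667-37232886, minus strand: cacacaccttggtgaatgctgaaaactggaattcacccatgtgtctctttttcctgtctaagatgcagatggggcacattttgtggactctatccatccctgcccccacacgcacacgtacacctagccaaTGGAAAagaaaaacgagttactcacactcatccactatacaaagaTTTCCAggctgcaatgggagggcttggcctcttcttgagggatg

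The Cd5 stretch held AGGAAG at 109 and 52 bases before the start, and the Slamf1 stretch held it 49 bases before. The Il21 stretch held TGGAAA or its reverse complement at 119 and 74 bases before the start. Of the 20 genes, 14 had a sequence in the RefSeq table. AGGAAG occurred in 5 of those 14 and in 26.1% of all 32851 stretches of the same length, TGGAAA in 4 of 14 and 16.9%, CTTTGA in 2 of 14 and 12.6%, and TGTGGT in 1 of 14 and 12.7%. A match is a description of letters and no evidence of binding.

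Across all genes with at least 50 UMIs over both sets of WT cells, 632 of 10663 were at least 2-fold higher in members (5.93%) and 1154 at least 2-fold lower (10.8%). Both shares are the background for the list counts against Cd3-low cells below, and the median log2 ratio of all genes was 0.11. With 1 library there is no test, and each 95% interval covers counting error only. When cells with macrophage, B cell, plasma cell or class II genes were left out of both sets, the median of all genes moved to -0.07, and list counts that this scaling moves by over 1.5 times are given below.

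Cd40lg (X:57212143-57224042, GENCODE M21 on mm10), which encodes CD40 ligand, had 1308 UMIs over members and 12 over Cd3-low cells. That is 261 CPM against 0.767 CPM, a log2 ratio of 8.41 (7.60 to 9.37). For Cd5 (19:10717116-10739002) the counts were 1324 and 23, and the log2 ratio 7.49 (6.90 to 8.15). Both genes were nearly absent from the Cd3-low cells, where 11 cells had a Cd40lg UMI and 17 a Cd5 UMI. Cd28 had 2447 and 279 UMIs, or 488 CPM against 17.8 CPM, and a log2 ratio of 4.77 (4.59 to 4.96).

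**Figure D1:**
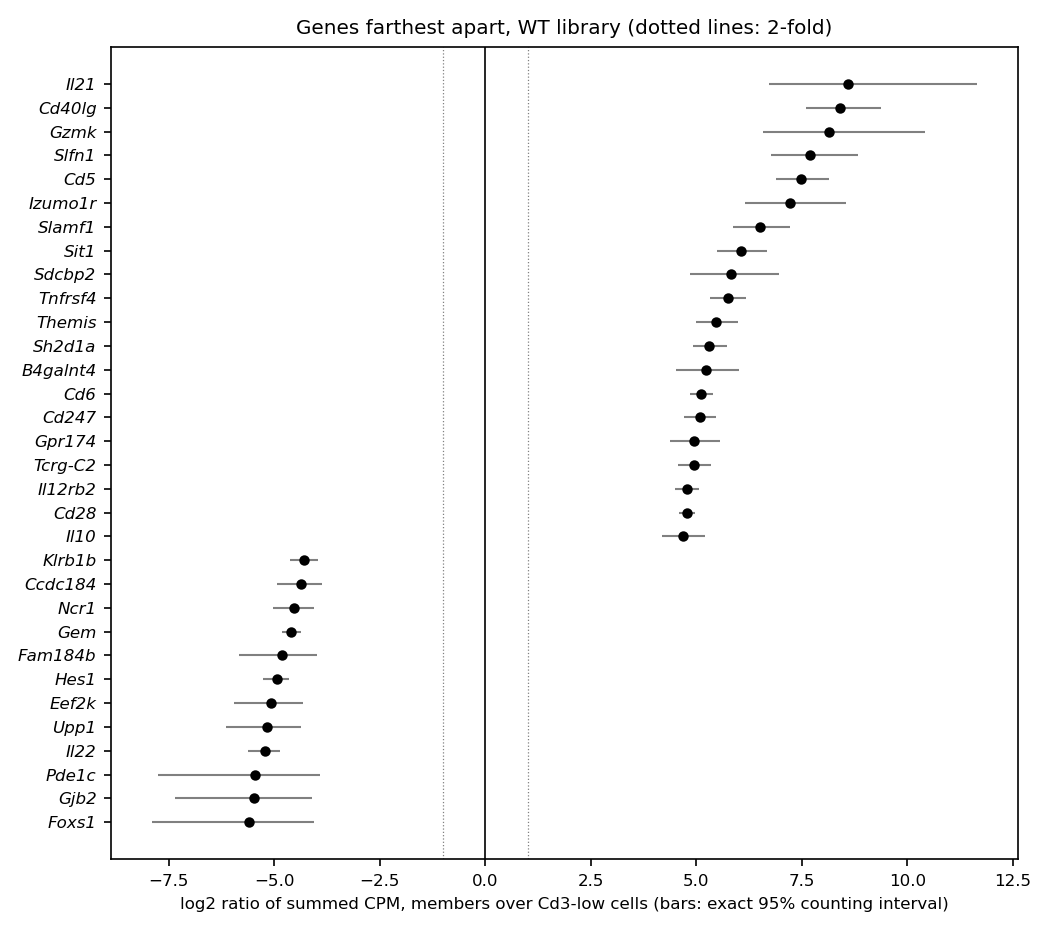
Log2 ratio of summed CPM in 822 members over 2085 Cd3-low cells of the WT library for the 20 highest and 12 lowest genes; points are ratios, bars exact 95% counting intervals, and dotted lines mark 2-fold. The higher genes run from 4.68 (Il10) to 8.60 (Il21) and the lower ones from -4.29 (Klrb1b) to -5.61 (Foxs1).

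Of 29 measured genes for T cell receptor signalling and its adaptors, 20 were at least 2-fold higher in members (5.93% of all genes were) and 0 lower, with a median log2 ratio of 1.86. Cd247, the zeta chain, had 706 UMIs in members and 65 in Cd3-low cells (log2 ratio 5.08). The adaptors Sit1 (552 and 26 UMIs, 6.05), Trat1 (534 and 76, 4.45) and Lat (2371 and 807, 3.20) stood high, as did Themis, needed for thymic selection (523 and 37, 5.46). Cd6, a relative of Cd5, had 1380 and 124 UMIs (5.12), and the kinase gene Lck 2524 and 1253 (2.65). The kinase gene Zap70 (0.77) was within 2-fold, and Cd3-low cells held 2016 UMIs of it against 1099 in members. Txk, a Tec family kinase gene, had a ratio of -0.80. Trbc1 was also within 2-fold (0.80), while Trbc2 was at 1.36, or at 0.91 when the cells with macrophage, B, plasma or class II genes were left out of both sets.

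Costimulators and checkpoint receptors followed, with 10 of 19 higher, 1 lower and a median of 1.26. Slamf1 had 583 and 20 UMIs (log2 ratio 6.51), and its adaptor Sh2d1a, which encodes SAP, 723 and 57 (5.31). Tnfrsf4, which encodes OX40, had 839 and 49 UMIs (5.74), and Tnfsf8, which encodes CD30 ligand, 700 and 276 (2.98). Of the members' Tnfrsf4 UMIs, 206 lay in the 23 cells of sub-cluster 9, described below, and 633 in the other members. The inhibitory receptor gene Ctla4 had 3796 and 852 UMIs (3.80), and Icos 2559 and 2410 (1.73). The gene that was lower was Havcr2, which encodes TIM-3, with 17 and 191 UMIs (-1.85). Pdcd1 (0.96), Lag3 (0.31) and Tnfrsf18 (0.55) were within 2-fold.

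Genes of the type 1 helper programme were shifted upward: 8 of 14 measured were higher and 0 lower, with a median of 1.02. Il12rb2, the signalling chain of the interleukin-12 receptor, had 1005 and 114 UMIs (log2 ratio 4.78). The chemokine receptor gene Cxcr3 (1101 and 732 UMIs, 2.23) and the chemokine gene Ccl5 (6557 and 4771, 2.10) were also higher. The transcription factor gene Tbx21 was at 0.95, within 2-fold. Il18r1 (1.03) and Il12rb1 (1.01) lay at the edge of 2-fold, and the count of higher genes was 5 when the cells with macrophage, B, plasma or class II genes were left out of both sets.

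For the type 17 helper list, 2 of 16 genes were higher and 9 lower, with a median of -1.31. The higher genes were Il17a and Maf, a transcription factor of several helper programmes (4556 and 3978 UMIs, log2 ratio 1.84). Il1r1 (-2.22), Ccr6 (-1.85) and Il23r (-1.36) were lower. Of 9 type 2 helper genes, 0 were higher and 6 lower (median -1.55), with Gata3 at 614 and 5621 UMIs (-1.55). ILC2 also depend on that gene, and 40.7% of Cd3-low cells had a Gata3 UMI at 2000 UMIs per cell, against 16.6% of members.

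**Figure D2:**
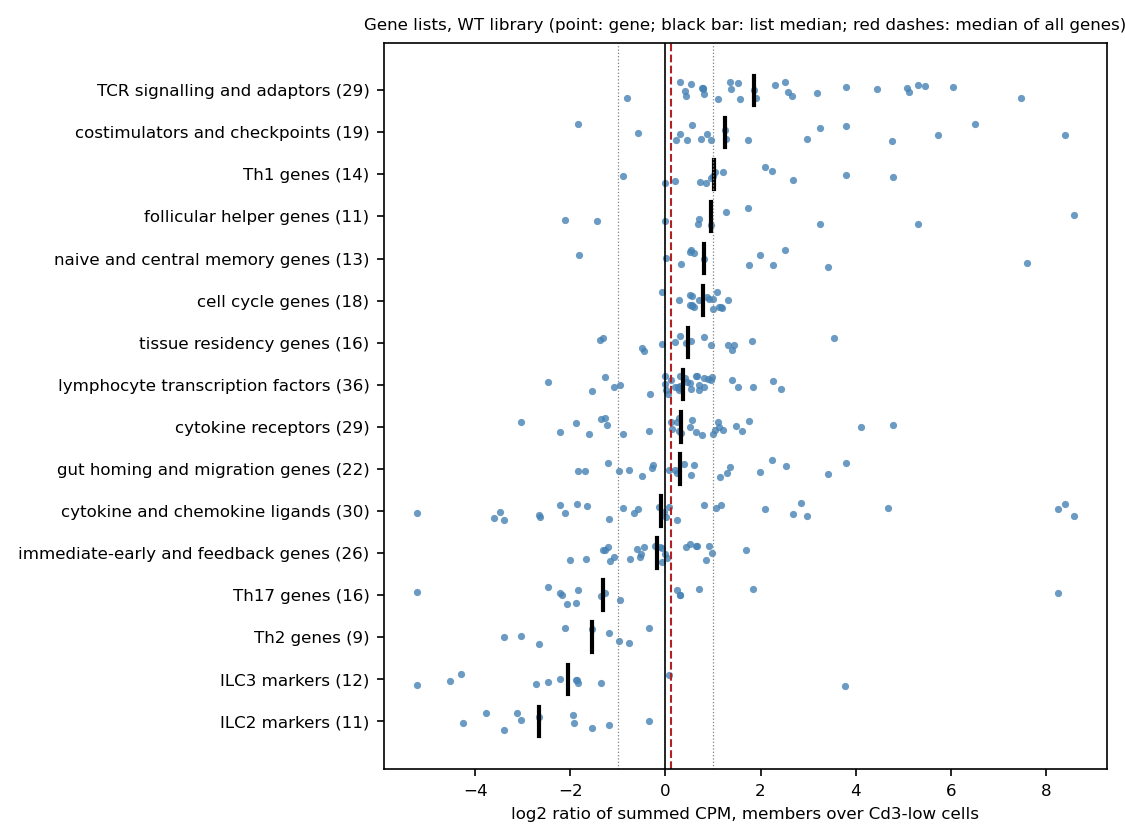
Log2 ratio of summed CPM, members over Cd3-low cells, for each measured gene (points) of 16 lists, with the number of genes in brackets; black bars are list medians, the red dashed line is the median of all genes (0.11) and dotted lines mark 2-fold. T cell receptor signalling genes lie farthest right (median 1.86) and ILC2 markers farthest left (median -2.66).

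Cytokine and chemokine ligands divided both ways, with 10 of 30 measured genes higher and 11 lower (median -0.09). Il21, which supports B cells, had 248 UMIs in 97 members and 2 UMIs in Cd3-low cells. With 2 UMIs in the comparison, its log2 ratio of 8.60 has a wide interval, from 6.73 to 11.65. Il17a had 489 UMIs in members and 5 in Cd3-low cells (8.25), but those 489 lay in 23 cells, of which the 5 richest held 51.1%. Il10 had 312 and 38 UMIs (4.68), with the 312 in 93 members. Of those 312, 128 lay in the 117 cells of sub-cluster 3 and 85 in the 23 cells of sub-cluster 9, both described below. Ifng, which activates macrophages, had 1375 and 670 UMIs (2.68) in 295 members, and Fasl, a death ligand, 772 and 332 (2.86). Il2 had 251 and 377 UMIs (1.05), with 30.3% of the members' UMIs in 1 cell.

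Among the 11 ligands that were lower were cytokines known from ILC3 and ILC2. Il22, which acts on epithelium, had 59 and 6906 UMIs, or 11.8 against 441 CPM (log2 ratio -5.23). Csf2, which encodes GM-CSF, had 179 and 6188 UMIs (-3.47), Il13 17 and 555 (-3.39), Il5 11 and 217 (-2.66) and Il4 113 and 1534 (-2.12). The others were Ccl1 (-3.61), Lif (-2.63), Cxcl2 (-2.22), Lta (-1.86), Csf1 (-1.66) and Areg (-1.18). Of the members' Areg UMIs, 241 lay in the 23 cells of sub-cluster 9 and 188 in the other members. Ltb (-0.90), Tnf (-0.03) and Tnfsf11 (0.07) were within 2-fold. At 2000 UMIs per cell, Ifng had a UMI in 24.1% of members and 4.98% of Cd3-low cells, Il21 in 6.31% and 0.049%, Il10 in 6.81% and 0.148%, and Il22 in 1.61% and 13.3%.

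Granzyme genes were carried by many of these Cd8a-negative cells. Gzmb had 2421 UMIs in members and 372 in Cd3-low cells (log2 ratio 4.34), Gzma 3097 and 1516 (2.67) and Gzmk 271 and 3 (8.14, 6.58 to 10.43). At 2000 UMIs per cell they had a UMI in 25.9%, 24.8% and 10.1% of members, and in 1.58%, 2.56% and 0.049% of Cd3-low cells. A single cell held 14.4% of the members' Gzma UMIs. Prf1, which encodes perforin, was within 2-fold (0.45), and the killer lectin receptor genes Klrk1 (-2.72) and Klrc1 (-2.88) were lower.

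Among 29 cytokine receptor genes, 10 were higher and 7 lower (median 0.32), and 5 were higher when the cells with macrophage, B, plasma or class II genes were left out of both sets. Il21r had 695 and 125 UMIs (log2 ratio 4.12), and Il12rb2 is given above. The alarmin and IL-17 family receptor genes Il17rb (79 and 2014 UMIs, -3.03), Il1r1 and Il17re (-1.88) were lower. Il2ra, the high-affinity chain for interleukin-2, had 259 and 1903 UMIs (-1.24). Il7r, which encodes the CD127 of the sort gate, was at 1526 CPM in members and 1221 CPM in Cd3-low cells (0.32). Without the macrophage, B, plasma and class II cells on both sides its ratio was -0.02. Thy1, which encodes CD90, was at 0.89 and Ptprc, which encodes CD45, at 1.45.

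Gut homing and migration genes were higher in 8 and lower in 3 of 22 (median 0.32), beside 5.93% and 10.8% of all genes. Ccr9, the receptor that draws T cells to the small intestine, had 3512 and 1901 UMIs (log2 ratio 2.53), and 60.5% of members had a UMI at 2000 per cell against 17.2% of Cd3-low cells. S1pr1, which guides egress into lymph, was at 194 and 57 UMIs (3.41). Of those 194, 108 lay in the 37 cells of sub-cluster 7, described below, and 86 in the other members. Ccr6 (-1.85), Ccr10 (-1.69) and Cxcr4 (-1.20) were lower. Beside the same shares of all genes, 5 of 16 residency genes were higher and 2 lower (median 0.48). They included Itga1 (550 and 485 UMIs, 1.82) and Rgs1 (1.31), while Cd69 (0.43) and Cxcr6 (0.19) were within 2-fold. Itgae, which encodes CD103, was within 2-fold at 0.95, but at 3.01 without the macrophage, B, plasma and class II cells on both sides.

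Transcription factor genes were mostly within 2-fold, with 5 of 36 higher and 4 lower (median 0.38). Over all genes 5.93% were higher and 10.8% lower, so the lower count is near that share. Bcl11b, which maintains T cell identity, had 1585 and 918 UMIs (log2 ratio 2.43), Lef1 295 and 193 (2.25) and Foxo1 385 and 419 (1.52). Of the members' Lef1 UMIs, 142 lay in the 37 cells of sub-cluster 7, described below, and 153 in the other members. Prdm1, which encodes BLIMP-1, was at 1.40, and Zbtb7b, which directs CD4+ fate, at 0.67. Gata3 was lower, as were Nfil3 (-1.28) and Zeb2 (-1.09). Id2 (0.06), Tox (-0.01) and Ikzf2 (0.11) had ratios near 0.

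Immediate-early and feedback genes were higher in 1 and lower in 7 of 26 (median -0.17), beside 5.93% and 10.8% of all genes. The one that was higher was Dusp2, a phosphatase gene (1404 and 1345 UMIs, log2 ratio 1.70), and 2 were higher when the cells with macrophage, B, plasma or class II genes were left out of both sets. Fos (-1.07), Fosb (-1.68), Atf3 (-2.01) and Nr4a1 (-1.31) were lower. Zfp36 had 341 CPM in members and 765 CPM in Cd3-low cells (-1.17, -1.24 to -1.09), and its relative Zfp36l1 was at -1.21, while Zfp36l2 was at 0.91. Cell cycle genes were higher in 7 and lower in 0 of 18 (median 0.79). Relative to the median of all genes, 4 cell cycle genes were higher. Of the members' UMIs of these genes, 45.2% lay in the 13 cells of sub-cluster 11, described below. Without those cells, an alternative chosen after seeing the data, 0 cell cycle genes were higher and 11 lower (median -1.30). That alternative left out no Cd3-low cells, so it does not show that the remaining members cycle less than like Cd3-low cells.

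The genes farthest below Cd3-low cells after Il22 were Hes1, a Notch target (92 and 8869 UMIs, log2 ratio -4.95), and Gem, a small GTPase (168 and 12720, -4.60). Upp1, a uridine phosphorylase (12 and 1363, -5.19), and the kinase gene Eef2k (14 and 1479, -5.08) followed. Ncr1, which encodes NKp46 (39 and 2808, -4.53), and Klrb1b (81 and 4954, -4.29) are receptor genes of NK cells and ILC. Of 12 ILC3 markers 10 were lower and 1, Cd4, higher, and of 11 ILC2 markers 10 were lower and 0 higher. Over 10 B and plasma cell genes the summed level was 59677 CPM in members and 172227 CPM in Cd3-low cells. In members 98.1% of those UMIs lay in the 13 cells of sub-cluster 10, and the other 809 members stood at 1257.5 CPM. Over 9 macrophage genes the summed level was 673 and 955 CPM, and 72.5 CPM in the 762 members outside sub-cluster 6, which held 90.3% of the members' UMIs of these genes. For both lists the Cd3-low level is that of all Cd3-low cells, with none left out.

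Against 136 WT CD8 T cells (the same rule, but with Cd8a), 442 of 8107 genes were at least 2-fold higher in members (5.45%) and 167 lower (2.06%). Of 29 receptor signalling genes 27 were within 2-fold, 2 higher and 0 lower, whereas 10 of 18 costimulator and checkpoint genes were higher and 2 lower. Tnfrsf4 was at 167 CPM in members and 7.34 CPM in CD8 T cells (log2 ratio 4.51), Il12rb2 at 200.3 and 12.6 CPM (3.99) and Maf at 908 and 88.0 CPM (3.37). Il10 and Il21 each had 1 UMI in the CD8 T cells. Members had less Ccl5 (1307 against 12075 CPM, -3.21), Cd7 (-3.73), Itgae (31.9 against 271 CPM, -3.09) and Nr4a2 (-2.98). Cd8b1, at -6.76, goes with the Cd8a UMIs that separate both sets.

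Against 123 WT Foxp3-positive T cells (the same rule, but with Foxp3), 665 of 8099 genes were at least 2-fold higher in members (8.21%) and 319 lower (3.94%). Of 13 type 1 helper genes 11 were higher and 0 lower, and of 11 regulatory T cell markers 0 were higher and 11 lower. Ifng was at 274 CPM in members and 19.9 CPM in Foxp3-positive cells (log2 ratio 3.78), Fasl at 154 and 9.43 CPM (4.03), Nkg7 at 492 and 38.7 CPM (3.67) and Xcl1 at 316 and 18.9 CPM (4.07). Il21 had 1 UMI in the Foxp3-positive cells. Klrg1 (-4.18), Tnfrsf9 (-3.70) and Areg, a tissue repair factor (85.5 against 981 CPM, -3.52), were lower in members. At 2000 UMIs per cell, Il10 had a UMI in 6.81% of members and 41.0% of Foxp3-positive cells.

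Against 88 WT gamma-delta T cells (Trdc but no Trac UMI), 418 of 7988 genes were at least 2-fold higher in members (5.23%) and 394 lower (4.93%). Tnfrsf4 had 1 UMI and Cd4 3 UMIs in the gamma-delta cells, against 839 and 968 in members. Cd5 was at 264 and 14.4 CPM (log2 ratio 4.20) and Cd6 at 275 and 19.8 CPM (3.80). Gzmk and Il21 had 0 UMIs in the gamma-delta cells. Against a floor of 3 counts over that group they were 10.0-fold and 9.16-fold higher in members. The 95% lower limits were 8.08-fold and 7.39-fold. Cd163l1, which encodes SCART1 (-7.18), Zbtb16, which encodes PLZF (-3.33), and Tcrg-C4 (-2.97) were lower in members. Cell cycle genes were higher in 11 of 17 and lower in 0, but without the 13 cells of sub-cluster 11 they were higher in 4 and lower in 1 (median 0.28 in place of 1.58). No gamma-delta cells were left out there, so the fall is one-sided.

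**Figure D3:**
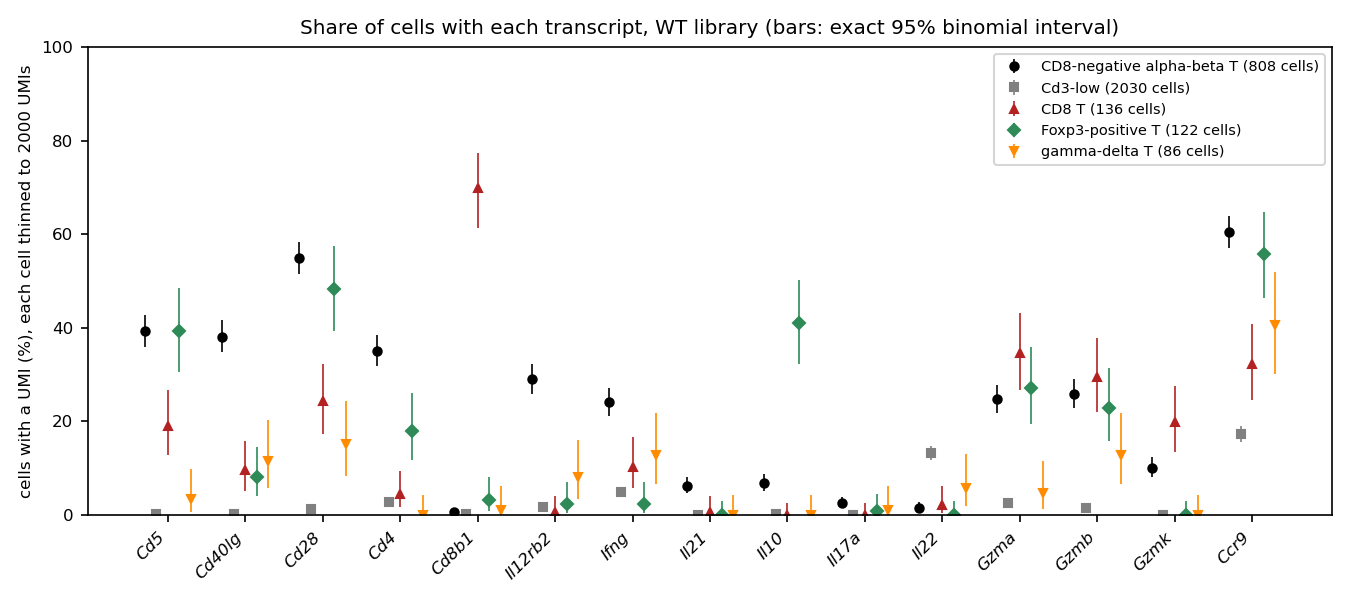
Percent of cells with a UMI of each gene after thinning every cell to 2000 UMIs, for members (black, 808 cells) and 4 other sets of the WT library; bars are exact 95% binomial intervals. Cd40lg, Cd4, Il12rb2, Ifng and Il21 are higher in members than in each other set shown, and Il10 is highest in Foxp3-positive cells.

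Members were not uniform. Among the 295 with an Ifng UMI, 47.5% had Gzmb (41.6 to 53.3) against 23.5% of the other 527, and 70.2% had Cxcr3 against 55.8%. Both subsets had like depth, with medians of 5104 and 5048 UMIs. Among the 97 members with Il21, 34.0% also had Il10 (24.7 to 44.3), against 8.28% of the others. Of 23 members with Il17a, 6 had Il22 (26.1%, 10.2 to 48.4), against 2.88% of the other 799. Ifng was found in 4 of the 23 (17.4%, 4.95 to 38.8) against 36.4% of the others, Gzmb in 2 and Il21 in 1. Gzma and Gzmk were found in 0 of the 23, which allows shares of up to 14.8% (exact 95% limit), against 34.7% and 19.3% of the others. Il10 was also found in 0, but its share in the others, 11.6%, lies under that limit. Il4 went with NK receptor genes in part, with Klrd1 in 9 of the 45 Il4-positive members and 32 of the other 777.

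Cd4 divided the members into 519 with a UMI and 303 without, at medians of 5097 and 5048 UMIs. A missing Cd4 UMI at this depth does not show that a cell lacks CD4. Il21 had 218 UMIs in the first set and 30 in the second (log2 ratio 1.84), and Il10 was at 1.14. Ctla4 was at 0.67 and Cd40lg at 0.09. Klrd1 (-2.75), Ramp1 (-3.26) and Cd7 (-1.79) were lower in Cd4-positive members. Without the macrophage and plasma gene sub-clusters described below, an alternative chosen after seeing the data, Il21 was at 1.81, Klrd1 at -2.96, Cd7 at -1.83 and Ramp1 at -2.59. The genes with the highest ratios, the plasma cell genes Jchain (6.70) and Igkc (6.30), were then at 0.34 and -0.24.

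Receptor variable genes were sparse in these 3′ tags. An alpha variable gene was counted in 192 of 822 members (23.4%), a beta variable gene in 100, and a delta variable gene in 5. Trav14n-3 was the most frequent alpha gene, in 35 members, and Trbv2 and Trbv12-2 the most frequent beta genes, in 23 each. A gamma variable gene was counted in 126 members, of which 101 had Trgv2, and Tcrg-C2 had 620 UMIs in members and 63 in Cd3-low cells (log2 ratio 4.94). The gamma constant genes Tcrg-C1 (306 and 2338 UMIs, -1.29) and Tcrg-C4 (221 and 2458, -1.83) were lower in members. Such near-identical receptor genes can share reads, so their counts are uncertain. Tcrg-C2 had a UMI in 17.8% of members, 48.5% of CD8 T cells, 37.2% of gamma-delta cells and in 0 of 122 Foxp3-positive cells (up to 2.98%, exact 95% limit), at 2000 UMIs per cell.

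Clustering the members alone gave 11 sub-clusters, which are described by their genes and not named, since the clustering used those genes. Shares here are of cells with a UMI, without thinning. A gene is counted as higher in a sub-cluster where its level was at least 2-fold above that in the other members and at least 10% of the sub-cluster's cells had a UMI of it, for listed genes and all genes alike. Genes counted as lower were at least 2-fold below, with no minimum share of cells. The share of all genes lower in a sub-cluster was not counted, so the lower counts have no background beside them. Sub-cluster 1 (237 cells) was led by Lztfl1 (86.9% of its cells) and carried Ccr9 (89.5%) and Cxcr3 (79.3%). Sub-cluster 2 (140 cells) was led by the chemokine genes Ccl4 and Ccl5 and by granzymes, with Gzma in 62.1%, Gzmb in 57.1% and Itgae in 26.4%. There 5 of 10 CD8 and cytotoxic cell genes were higher, against 1.57% of all genes, and 3 were lower. Sub-cluster 3 (117 cells) had Ifng in 73.5%, Il12rb2 in 85.5%, Il10 in 37.6% and Il21 in 32.5%. In it 6 of 13 type 1 helper genes stood higher, against 2.80% of all genes. The interferon-induced genes Ifit1 and Ifit3 were among its leading genes, but only 11.97% and 10.26% of its cells had a UMI of them. These 3 sub-clusters resembled each other in Ccr9 (87.1% to 91.5%) and Cd40lg (62.9% to 70.9%).

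Sub-cluster 4 (85 cells) held the type 17 genes, with Il17a in 20%, Il17re in 28.2%, Ccr6 in 25.9% and Il22 in 11.8%. Of 15 type 17 helper genes 11 were higher there and 1 lower, against 2.33% of all genes higher, and 7 of 8 ILC3 markers, a list that shares genes with it, were higher too. Sub-cluster 5 (61 cells) carried Slamf6 (85.2%), Tnfsf8 (67.2%), Izumo1r (65.6%) and Tox2, with Ccr9 in 9.84%. Of 9 follicular helper genes 7 were higher, against 3.51% of all genes, and Cxcr5 had a UMI in 13.1%. Sub-cluster 7 (37 cells) had Ccr7 in 83.8%, S1pr1 in 89.2% and Lef1 in 94.6%, genes of cells that recirculate through lymph nodes. There 12 of 13 naive and central memory genes were higher, against 3.92% of all genes. Of its 37 cells, 0 had an Ifng, Il21, Il10 or Il17a UMI, which allows shares of up to 9.49% (exact 95% limit). For Il17a the share in all members, 2.80%, lies under that limit.

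Sub-cluster 8 (36 cells) was led by NK receptor genes, with Klrd1 in 61.1% and Klrb1c, which encodes NK1.1, in 52.8%. Il4 was found in 47.2% of its cells and Ifng in 47.2%, and Zbtb16 and Cd4 in 25% each. Of 8 ILC1 and NK cell markers 6 were higher there, against 5.33% of all genes, as were 6 of 10 CD8 and cytotoxic cell genes, of which 2 were lower. The 3 measured NKT and MAIT cell markers (Klrb1c, Tyrobp and Fcer1g), which are also on the ILC1 and NK list, were all higher. Sub-cluster 9 (23 cells) carried Klrg1 (78.3%), Il10 (73.9%), Areg (73.9%) and Ctla4 and Ikzf2 (100%), although the rule took only cells without a Foxp3 UMI. Of 8 regulatory T cell markers 7 were higher, against 8.16% of all genes. So were 6 of 7 ILC2 markers (Gata3, Il17rb, Il1rl1, Klrg1, Areg and Calca) and 5 of 6 type 2 helper genes, 4 of which are also on the ILC2 list. Sub-cluster 11 (13 cells, median 19204 UMIs) held Mki67 in 100%, and 17 of 17 cell cycle genes were higher, against 10.8% of all genes.

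Genes of other cell types marked 2 further sub-clusters. Sub-cluster 6 (60 cells) was led by macrophage genes such as Lyz2 (31.7%) and C1qb (33.3%). Of 6 macrophage markers 6 were higher, against 6.14% of all genes, as were 9 of 15 type 17 helper genes and 5 of 8 ILC3 markers. The same 3 NKT and MAIT cell markers were higher too, and Zbtb16 had a UMI in 26.7% of the cells of sub-cluster 6. Of the 11 members that Scrublet predicted as doublets, 9 lay there. Sub-cluster 10 (13 cells) had a median of 38787 UMIs and the plasma cell gene Jchain in 100%, with 8 of 8 B and plasma cell genes higher, against 1.37% of all genes. Whether these barcodes each hold more than 1 cell was not tested beyond the doublet prediction.

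**Figure D4:**
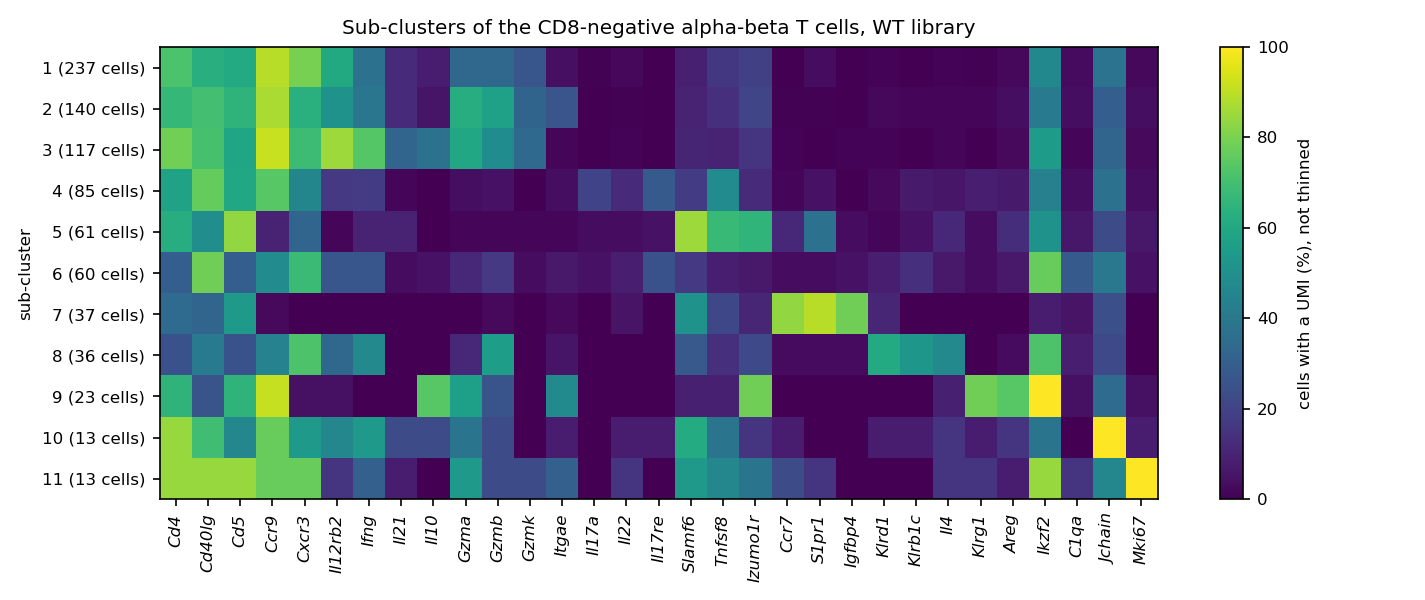
Percent of cells with a UMI (colour, 0 to 100, not thinned) for selected genes (columns) in the 11 sub-clusters of the 822 WT members (rows, with cell numbers). Ifng and Il21 are most frequent in sub-cluster 3, Il17a and Il17re in sub-cluster 4, Ccr7 and S1pr1 in sub-cluster 7, and Klrd1 and Klrb1c in sub-cluster 8.

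In the Zfp36_KO library, 123 kept cells had at least 2 Cd3 UMIs, against 1312 in WT, and 20 of them had Trac, against 1134 in WT. Of those, 6 were members, 1 was Foxp3-positive and 0 were CD8 T cells, for which 0 of 3339 cells allows a share of up to 0.110% (exact 95% limit). Among the 6 knockout members, 5 had a Trbc2 UMI, 3 Cd40lg, and 1 each Cd5, Il12rb2, Cd28 and Cd4. Gamma-delta T cells numbered 40 in the knockout and 88 in WT. With 1 sorted pool per genotype, genotype, sort and library cannot be told apart, so the counts are given without a comparison of genes.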

How the data were processed

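Droplet-based 3′ single-cell libraries of 2 sorted pools were analysed, 1 per genotype. Per the file headers and the submitters' processing notes, the authors ran Cell Ranger 3.1.0 with build mm10. The deposited matrices hold raw UMI counts per gene for called cell barcodes. Reads outside called barcodes were not used here. From these counts, UMIs were summed over the cells of a set and scaled to CPM. Log2 ratios have exact 95% intervals from the binomial split of UMIs, and shares have Clopper-Pearson intervals; both cover counting error only. Genes needed 50 UMIs over both sets, and called means at least 2-fold. A set at 0 was placed at a floor of 3 counts. For shares, cells were thinned to 2000 UMIs. In Poisson counts simulated from these sums (10669 genes), the true ratio lay within 95.7% of intervals for unchanged genes. For 97.0% of 2-fold changes the interval excluded 0 on the right side. The simulation held no variation between cells, so it checks the interval calculation only and not how well intervals cover real differences.

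The 20 highest and 12 lowest genes were named by the interval end nearest 0, with a UMI in at least 10% of cells of the higher set and no cell holding over 10% of UMIs. Receptor variable, immunoglobulin, mitochondrial, ribosomal and unnamed genes were left out. Up to 6 genes per list and per other T cell set were named likewise, with all measured cytokines and the marker and sort-gate genes. Members and lists were chosen with earlier results of these data known. Doublets were predicted with Scrublet (scanpy 1.11.5) and kept, 11 of them members. Members were clustered with Leiden (leidenalg 0.10.2, resolution 0.5) on 1500 variable genes and 20 principal components, without the rule, receptor variable, heat-shock and immediate-early genes. Gene positions come from GENCODE M21, in which 30934 of 31053 features matched. Single values of some listed genes are not reported here.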

Additional observations from a re-analysis of the deposited data

How the results depend on the processing

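WT members took 29.4% of kept cells under the stricter filter of at least 1000 genes and at most 5% mitochondrial UMIs, and 26.1% when cells with macrophage, B, plasma or class II genes (chosen after seeing the data) were left out. The other 6 alternatives stayed within the interval of 22.8 to 25.7, and all 8 alternatives for the knockout share stayed within its own. Genes at least 2-fold higher numbered 373 when each cell was thinned to 2000 UMIs, and 380 with a minimum of 200 UMIs per gene, where genes at least 2-fold lower numbered 543; both settings test fewer genes. The stricter cell filter gave 862 higher and 877 lower genes, so that 49.6% of called genes were higher instead of 35.4%; the cause was not tested. For 92 genes followed through 13 alternatives, 880 values stayed within the gene's own interval, 300 moved outside it and 3 changed sign. Sign changes were counted only for genes whose interval excluded an unchanged level, so flips in genes with little difference are not among the 3. Cd8b1 went from 1.03 to -0.35 under the stricter filter. Il7r went from 0.32 to -0.17 without macrophage, B, plasma and class II cells in the Cd3-low set. Without those cells in both sets Il7r was at -0.018. The 20 highest and 12 lowest genes kept their direction in every alternative run. They were chosen as the genes farthest apart in the same cells, so this is no independent check. Depth limits detection in single cells: Cd4 had a UMI in 35.2% of members after thinning and 63.1% before. No paired analysis was possible because each genotype has 1 library and the labels give no replicate numbers.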
